A study of Mus musculus with 6 samples.

Results

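The genes of glucose uptake, glycolysis, lactate handling, the pentose phosphate pathway and glycogen turnover were followed through the tumor-associated macrophages (TAMs) of WT and C5aR-/- mice. They were taken by gene symbol from the TPM table, in which 35 of 56980 genes belonged to this group. A symbol was matched to the Ensembl gene identifier of the table through GENCODE M21, the annotation of GRCm38, and all 35 were found. Aldoa occupied 2 of the 36 matching rows, and the row of its main coding gene was used. The other, an upstream Aldoa gene model, had a TPM of 0.60 to 0.82 in WT and 1.22 to 2.07 in C5aR-/- TAMs. In all 35 genes the TPM was above 1 in every one of the 6 libraries, so that no member was lost to the filter on low values.

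The mice were C57BL/6 females, bought at 6 to 8 weeks of age. The WT group had the receptor intact, whereas the C5aR-/- group lacked C5aR in every cell type, so that the deletion was not limited to macrophages. Both groups were given ID8, an epithelial ovarian cancer line of the mouse, by intraperitoneal injection, and tumors of the abdominal cavity were taken 2 months later. Live CD45+CD11b+Ly6G-F4/80+ cells were sorted from the digested tumors, and their poly(A) RNA was sequenced in 3 libraries per group. The labels give tumor-associated macrophages as the cell type but describe RNA extraction only in terms of tissue. The study's figure legends name more mice per group than there are libraries here, and whether a library came from 1 mouse or from pooled mice is not given in the sources used here, so the p-values measure the spread between these libraries. The comparison asks how loss of the receptor for the complement fragment C5a changed gene expression in TAMs.

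Glycolysis breaks glucose down to pyruvate in the cytosol. In its preparatory phase ATP is spent to form triose phosphates, and in its payoff phase ATP and NADH are gained. Lactate dehydrogenase then turns pyruvate into lactate, which leaves the cell through monocarboxylate transporters, or pyruvate enters the mitochondria through the pyruvate dehydrogenase complex. The pentose phosphate pathway branches off at glucose 6-phosphate and yields NADPH and ribose 5-phosphate, and glycogen stores the same hexose. Activated macrophages and cells short of oxygen are known for a high glycolytic flux, and many genes of the pathway are targets of the hypoxia-inducible factor HIF-1 and of MYC.

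TPM is scaled for transcript length and library total, so that levels of different genes can be set side by side within a library, but it keeps no record of depth. C5ar1, the deleted gene, was near 0 in all 3 libraries labelled C5aR-/-, with 0.38, 0.11 and 0.05 TPM against 86.5, 37.3 and 16.2 in the WT libraries. The gap was -5.04 on the log2 scale (limma, adjusted p = 0.0666). Macrophage markers were present in all 6 libraries but varied within each group. The summed TPM of 14 macrophage genes was 9917, 4134 and 2914 in WT TAM 1, 2 and 3 and 9911, 5701 and 2872 in C5aR-/- TAM 1, 2 and 3. Epithelial or tumor cell genes, among them Krt19, Krt18 and Krt8, were also abundant, with summed TPM values of 2116 to 2943 that did not separate the groups. Hemoglobin and other erythroid genes stood out in C5aR-/- TAM 1, with a summed TPM of 26558 against 333 to 7262 in the other libraries. In these bulk libraries, fewer cells of a type and less RNA per cell cannot be told apart. Across genes, which are not independent replicates, C5aR-/- TAM 1 correlated with the WT libraries at 0.912 to 0.939 and with C5aR-/- TAM 2 and 3 at 0.931 and 0.886. C5aR-/- TAM 2 correlated with the WT libraries at 0.940 to 0.949 and C5aR-/- TAM 3 at 0.904 to 0.917. C5aR-/- TAM 2 and 3 correlated with each other at 0.960. C5aR-/- TAM 1 was thus not the library of its group nearest to WT. The counts are given with and without it, and every other library was also left out in turn.

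Taken as a sum, transcripts of the glycolytic trunk were more abundant in every C5aR-/- library than in any WT library. The summed TPM of the 6 payoff genes was 3818, 3830 and 3218 in WT and 4410, 7622 and 9011 in C5aR-/- TAMs, and that of the 12 preparatory genes 1500, 1639 and 1771 in WT and 2169, 3014 and 2753 in C5aR-/- TAMs. The 6 pentose phosphate genes and the 5 glycogen genes did not separate the groups in this sum. Together the 35 genes made up 0.743%, 0.775% and 0.741% of the TPM in WT TAM 1, 2 and 3, and 0.935%, 1.30% and 1.38% in C5aR-/- TAM 1, 2 and 3. By mean TPM, Gapdh alone was 31.6% of the sum of the 35 genes in WT and 34.9% in C5aR-/- TAMs. All 3 C5aR-/- libraries lay above all 3 WT libraries in 16 of the 35 genes and below them in 2, Ldhb and Rpia. The 16 held 5 of the 12 preparatory and 5 of the 6 payoff genes. Over the 14776 genes tested, 8.84% were above and 12.5% below in this sense. In the remaining 17 genes the groups overlapped, and their log2 differences ran from -0.80 to 0.67. Differences are on the log2(TPM + 1) scale, C5aR-/- minus WT, and the median over the 35 genes was 0.51, against -0.05 over all genes tested. Of the 35, 28 were above 0, where 44.5% of all genes were.

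In limma with Benjamini-Hochberg adjustment, 0 of the 35 genes had an adjusted p under 0.05 together with a 2-fold change, and 0% of all genes did. The adjusted p-values of the 35 ran from 0.0962 to 0.904. At 0.05 for the unadjusted p, 6 were higher, namely Slc2a1, Pfkp, Tpi1, Pgk1, Eno1 and Pkm, where 2.13% of all genes were. Ldhb was the 1 gene lower at this threshold, where 2.84% of all genes were. With no minimum for the fold change, 14 of the 35 were higher and 2 lower, against 6.06% and 8.37% of all genes. Without C5aR-/- TAM 1, 9 of the 35 passed the adjusted threshold (2.41% of all genes), 8 of them higher (1.52%) and 1 lower (0.887%). These were Slc2a1, Pfkl, Tpi1, Pgk1, Pgam1, Eno1, Pkm and Ldha on the higher side and Ldhb on the lower side. With any other single library left out, 0 of the 35 passed the adjusted threshold. Without C5aR-/- TAM 1 the unadjusted threshold was passed by 10 higher (4.19%) and 1 lower (4.38%). Without C5aR-/- TAM 3, only Slc2a1 and Pgk1 passed the unadjusted threshold with its fold change.

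**Figure D1:**
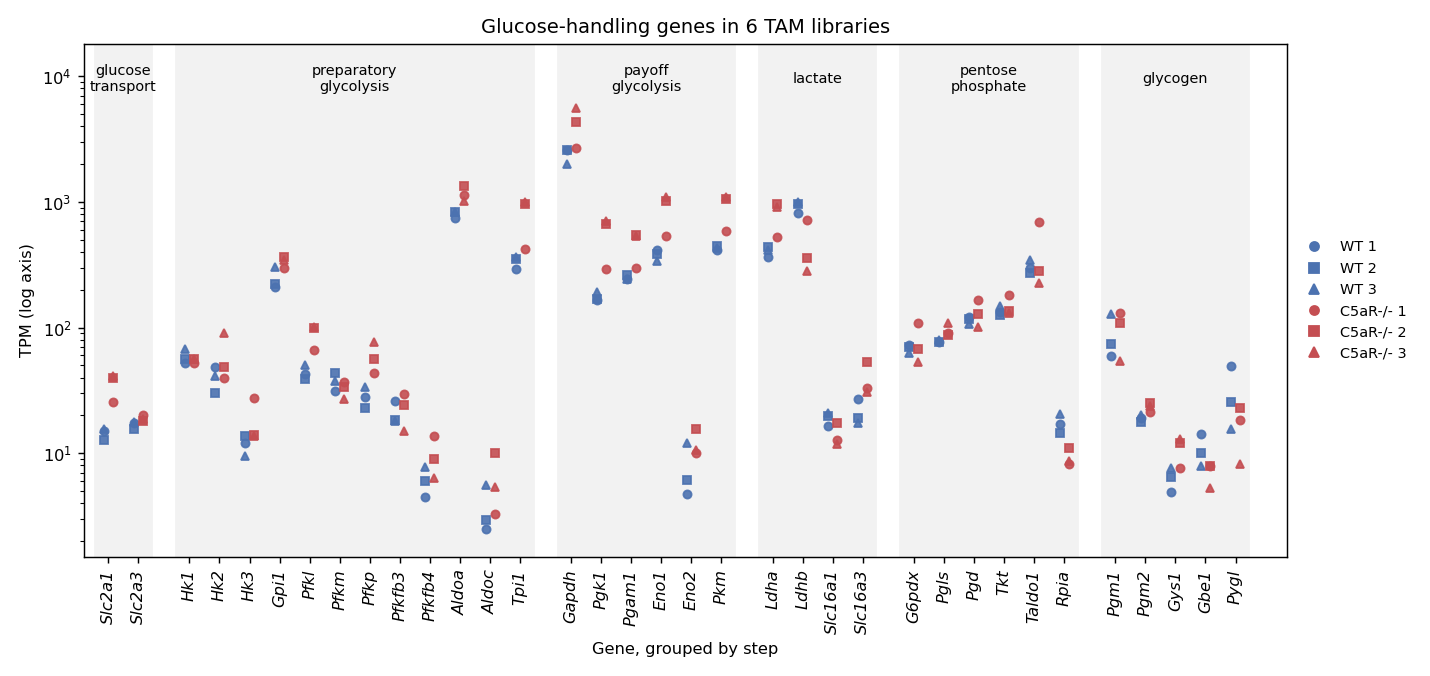
TPM of each of the 35 genes on a log axis, with WT libraries in blue and C5aR-/- libraries in red, and circles, squares and triangles for library 1, 2 and 3. The red points of Slc2a1, Tpi1, Pgk1, Eno1, Pkm and Ldha lie above the blue ones, and those of Ldhb and Rpia below.

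**Figure D2:**
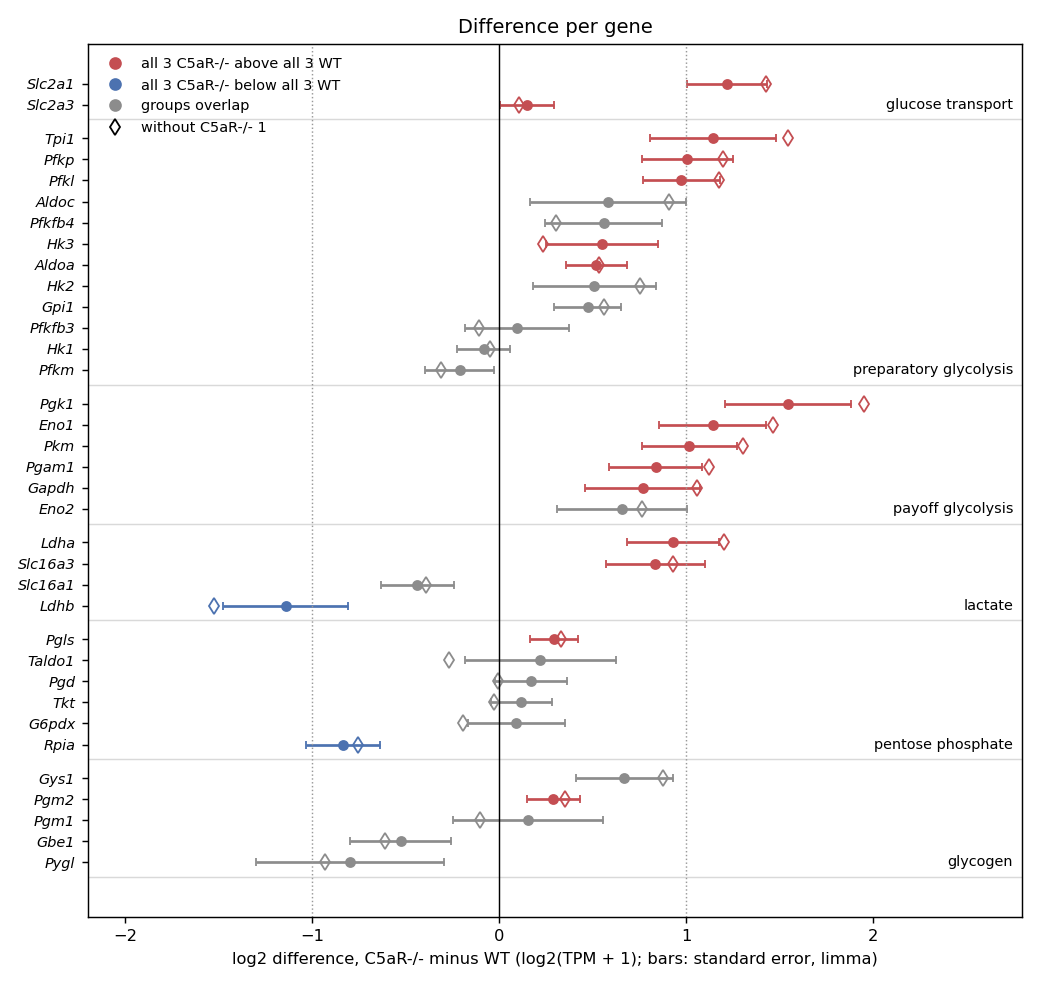
Log2 difference between C5aR-/- and WT TAMs for each gene, with bars for the standard error from limma, and open diamonds for the difference without C5aR-/- TAM 1; dotted lines mark a fold change of 2. Most genes of the trunk lie to the right of 0, with Pgk1 at 1.55, and Ldhb lies farthest to the left at -1.14.

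At the entry of glucose, the transporters GLUT1 and GLUT3 were both higher in all C5aR-/- libraries, GLUT3 by a narrow margin. Slc2a1, which encodes GLUT1, the transporter that HIF-1 and growth signals induce in many cells, was measured at 14.95, 12.7 and 15.6 TPM in WT and 25.8, 39.7 and 40.9 TPM in C5aR-/- TAMs. The lowest C5aR-/- value was thus well above the highest WT value, and the difference was 1.22 ± 0.21 on the log2 scale (SE, limma, adjusted p = 0.0962). This was the smallest adjusted p among the 35 genes. Slc2a3, which encodes GLUT3, a transporter of high affinity, was at 17.3, 15.5 and 17.9 in WT and 19.99, 17.9 and 18.6 in C5aR-/- TAMs. Its groups did not overlap either, but the margin was 17.87 against 17.93, and the log2 difference 0.15 ± 0.14 (SE, limma, adjusted p = 0.676). Slc2a3 was the more abundant transporter in every WT library, with 0.819 to 0.875 Slc2a1 transcripts for each of Slc2a3, and Slc2a1 was in every C5aR-/- library, with 1.29, 2.21 and 2.21.

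Hexokinase, which traps glucose as glucose 6-phosphate, is encoded by 3 of the genes, and the groups overlapped in Hk1 and Hk2. Hk1, the housekeeping form, ran from 51.8 to 67.9 in WT and from 52.4 to 56.5 in C5aR-/- TAMs. Hk2, the inducible form, ran from 29.99 to 48.2 in WT and from 39.6 to 90.5 in C5aR-/- TAMs, and a single library, C5aR-/- TAM 3, stood above the rest. Hk3, a form found mainly in myeloid cells, was 12.1, 13.7 and 9.56 in WT and 27.7, 14.02 and 13.7 in C5aR-/- TAMs, and here C5aR-/- TAM 1 stood above the rest, while the other C5aR-/- libraries cleared the WT values narrowly. Its log2 difference of 0.55 became 0.23 without that library. Gpi1, the isomerase of the next step and the only gene for it, was 208, 222 and 301 in WT and 296, 367 and 344 in C5aR-/- TAMs, and WT TAM 3 lay within the C5aR-/- range.

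Phosphofructokinase, which commits hexose to glycolysis, was higher in all C5aR-/- libraries in 2 of its 3 genes, where 8.84% of all genes were. Pfkl, the liver-type subunit and the most abundant of the 3 in both groups by mean TPM, was 42.9, 39.2 and 50.6 in WT and 66.1, 99.9 and 101 in C5aR-/- TAMs (0.98 ± 0.20 on the log2 scale, SE). Pfkp, the platelet-type subunit, was 28.3, 23.1 and 33.9 in WT and 43.9, 55.7 and 77.2 in C5aR-/- TAMs (1.01 ± 0.24 on the log2 scale, SE). In both genes C5aR-/- TAM 1 was the lowest of its group. Pfkm, the muscle-type subunit, ran from 31.5 to 43.3 in WT and from 26.8 to 36.8 in C5aR-/- TAMs, with overlapping groups and a log2 difference of -0.21. The ratio of Pfkp to Pfkl stayed in 1 range, 0.588 to 0.669 in WT and 0.558 to 0.762 in C5aR-/- TAMs. Pfkfb3 and Pfkfb4 encode bifunctional enzymes that set the level of a bisphosphate activator of phosphofructokinase, and their groups overlapped, with log2 differences of 0.10 and 0.56. Both were highest in C5aR-/- TAM 1.

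The steps from fructose bisphosphate to triose phosphate were carried by Aldoa and Tpi1. Aldoa, the main aldolase gene of these cells, was 749, 834 and 837 in WT and 1137, 1339 and 1015 in C5aR-/- TAMs (0.52 ± 0.16 on the log2 scale, SE). Aldoc, the aldolase of brain, was present at 2.51 to 5.64 in WT and 3.28 to 10.1 in C5aR-/- TAMs, under 1% of the Aldoa level throughout. Tpi1, which interconverts the triose phosphates, was 295, 351 and 361 in WT and 423, 956 and 1002 in C5aR-/- TAMs. Its C5aR-/- libraries fell into a low value in TAM 1 and high values in TAM 2 and 3, and the log2 difference of 1.14 (standard error 0.34) became 1.55 without TAM 1.

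The payoff phase had the highest median difference of the 6 steps, 0.93 on the log2 scale. In 5 of its 6 genes all C5aR-/- libraries lay above all WT libraries, as they did in 8.84% of all genes tested. Pgk1, phosphoglycerate kinase, which makes the first ATP of the phase, had the largest log2 difference of the 35 genes. The gene lies on the X chromosome (chrX:106187100-106203699, GRCm38). It was 166, 169 and 193 in WT and 292, 667 and 701 in C5aR-/- TAMs, so that the mean was 3.14 times as high in C5aR-/- TAMs, by 1.55 on the log2 scale (SE 0.34, limma, adjusted p = 0.14). Without C5aR-/- TAM 1, the lowest library of its group, the difference was 1.95 (limma, adjusted p = 0.0162). With any other single library left out it was from 1.32 to 1.61 (limma, adjusted p from 0.271 to 0.501). Pgk1 and Slc2a1 were past the unadjusted threshold in all 13 alternative fits. By mean TPM Pgk1 was the 11th most abundant of the 35 genes in WT and the 7th in C5aR-/- TAMs.

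Eno1, the enolase of most tissues, was 417, 386 and 338 in WT and 534, 1011 and 1086 in C5aR-/- TAMs (1.14 ± 0.29 on the log2 scale, SE). Pkm, pyruvate kinase, which ends the pathway, was 417, 448 and 429 in WT and 585, 1054 and 1082 in C5aR-/- TAMs (1.02 ± 0.25 on the log2 scale, SE). Pgam1, phosphoglycerate mutase, was 241, 259.6 and 243 in WT and 298, 543 and 538 in C5aR-/- TAMs. These genes shared 1 pattern, in which C5aR-/- TAM 1 lay between the WT libraries and C5aR-/- TAM 2 and 3. Eno2, the neuronal enolase, ran from 4.75 to 12.1 in WT and from 10.1 to 15.6 in C5aR-/- TAMs, and WT TAM 3 lay within the C5aR-/- values.

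Gapdh, often used as a reference gene, was the most abundant of the 35 in both groups. It was 2572, 2561 and 2004 in WT and 2690.1, 4332 and 5592 in C5aR-/- TAMs (0.77 ± 0.31 on the log2 scale, SE, limma, adjusted p = 0.33). C5aR-/- TAM 1 was above the highest WT library by a narrow margin. Reads of Gapdh can be shared with near-identical copies, so its values are uncertain, as 80.3% of the 75-base words of its transcript recur in transcripts of 118 other genes. Those genes together had a TPM of 891, 859 and 777 in WT and of 1206, 1788 and 2259 in C5aR-/- TAMs, so that they followed the order of Gapdh itself. Similar overlap was found for Pgk1 (67.5% of words), Eno1 (65.4%) and Pgam1 (40.6%), but their copies reached a summed TPM of at most 0.44, 1.71 and 6.12 in any library. Pkm shared 19.6% of its words with 3 other genes, whose summed TPM was 18.02, 12.4 and 12.4 in WT and 19.5, 31.7 and 43.7 in C5aR-/- TAMs, and its values carry that uncertainty.

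In lactate handling, genes for the same step had differences of opposite sign. Ldha, the lactate dehydrogenase subunit that favors lactate formation, lies at chr7:46841475-46855627 (GRCm38) and was 366, 439 and 410.3 in WT and 528, 962 and 901 in C5aR-/- TAMs (0.93 ± 0.25 on the log2 scale, SE, limma, adjusted p = 0.191). Ldhb, the heart-type subunit that favors lactate use, was 810.3, 967 and 998 in WT and 711, 358 and 284 in C5aR-/- TAMs (-1.14 ± 0.34 on the log2 scale, SE, limma, adjusted p = 0.224). Ldhb was thus lower in all C5aR-/- libraries, least in TAM 1. It was the 2nd most abundant of the 35 genes in WT TAMs by mean TPM and the 9th in C5aR-/- TAMs.

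The ratio of Ldha to Ldhb transcripts, which does not depend on the library total, was 0.452, 0.454 and 0.411 in WT TAMs and 0.744, 2.68 and 3.17 in C5aR-/- TAMs. In the WT libraries Ldhb transcripts outnumbered those of Ldha, as they still did in C5aR-/- TAM 1, whereas Ldha prevailed in C5aR-/- TAM 2 and 3. The mean log2 ratio was -1.19 ± 0.08 (SD, n = 3) in WT and 0.89 ± 1.14 in C5aR-/- TAMs.

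The balance of the lactate transporters differed between the groups as well. Slc16a3, which encodes MCT4, the exporter of glycolytic cells, was 27.2, 18.99 and 17.5 in WT and 33.3, 53.3 and 30.9 in C5aR-/- TAMs (0.84 ± 0.26 on the log2 scale, SE). Slc16a1, which encodes MCT1, a transporter of both directions, ran from 16.6 to 20.9 in WT and from 11.8 to 17.3 in C5aR-/- TAMs, with overlapping groups (-0.44 on the log2 scale). The ratio of Slc16a3 to Slc16a1 was 1.64, 0.960 and 0.839 in WT and 2.60, 3.09 and 2.62 in C5aR-/- TAMs. Here C5aR-/- TAM 1 stood with the other libraries of its group. Of the 8 pairs of genes for the same step that were compared, the groups were apart in these 2 and in Slc2a1 to Slc2a3, and overlapped in the pairs of hexokinase, phosphofructokinase, aldolase and enolase. For Ldha to Ldhb this followed from the genes themselves, which were each apart, in opposite directions.

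**Figure D3:**
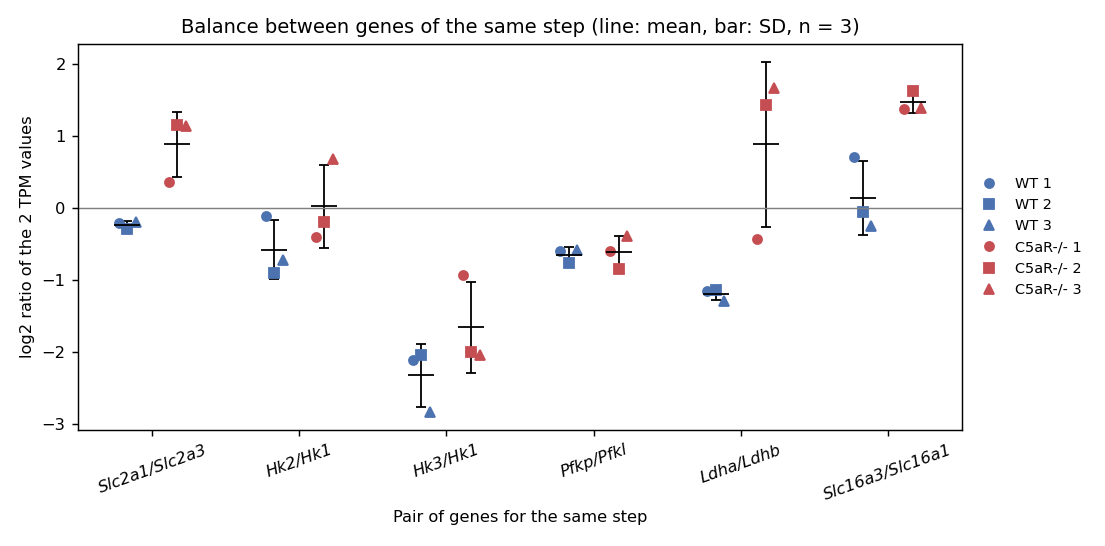
Log2 ratio of the TPM of 2 genes that serve the same step, for 6 of the 8 pairs, in WT (blue) and C5aR-/- (red) libraries, with the mean as a line and the SD as a bar (n = 3). The groups are apart for Slc2a1/Slc2a3, Ldha/Ldhb and Slc16a3/Slc16a1, and C5aR-/- TAM 1 (red circle) lies at -0.43 for Ldha/Ldhb, between the WT libraries and the other C5aR-/- libraries.

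Promoter sequences were read for genes with all C5aR-/- libraries above WT (Pgk1, Ldha, Pfkl) and for Ldhb, the gene with the largest difference in the other direction, to show how the core letters of the HIF-binding element are placed in them. The sequences are from RefSeq on GRCm38.p6, given 5′ to 3′ on the strand of the gene, from 160 bases before the annotated start to the last base before it. Capitals mark ACGTG and GCGTG on either strand, so that CACGT also appears in capitals, and CACGTG is ACGTG read on both strands.
Pgk1, chrX:106186940-106187099, plus strand: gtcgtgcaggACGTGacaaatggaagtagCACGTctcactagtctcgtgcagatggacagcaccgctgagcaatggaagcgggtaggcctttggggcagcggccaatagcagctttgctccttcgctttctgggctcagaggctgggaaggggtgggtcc
Ldha, chr7:46845644-46845803, plus strand: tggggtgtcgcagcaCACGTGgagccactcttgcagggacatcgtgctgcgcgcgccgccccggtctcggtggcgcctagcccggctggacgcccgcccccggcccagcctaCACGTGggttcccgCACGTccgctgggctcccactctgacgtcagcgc
Pfkl, chr10:78009808-78009967, minus strand: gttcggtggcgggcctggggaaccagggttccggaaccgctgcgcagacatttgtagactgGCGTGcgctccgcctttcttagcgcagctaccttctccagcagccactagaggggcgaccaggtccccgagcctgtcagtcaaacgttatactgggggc
Ldhb, chr6:142507958-142508117, minus strand: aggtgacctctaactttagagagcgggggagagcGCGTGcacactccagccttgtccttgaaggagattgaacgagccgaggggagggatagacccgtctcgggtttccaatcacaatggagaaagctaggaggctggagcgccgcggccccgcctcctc
The stretches of Ldha and Pfkl lie within the GENCODE M21 span of their genes, whose annotated start is farther upstream, and 0 bases of the 4 stretches fall in GENCODE exons. Pgk1 held the letters at 2 places and Ldha at 3, of which 2 were the palindrome CACGTG, while Pfkl and Ldhb held GCGTG at 1 place each. Over the full windows, from 250 bases before to 50 after the start, 29 of the 34 genes of the group with a RefSeq window held ACGTG or GCGTG on either strand (85.3%). The share was 46.7% of all 27025 genes with a window and 66.1% of the 10357 that were also tested. ACGTG alone was in 55.9% of the group and 28.7% of the tested genes, GCGTG in 61.8% and 54.6%, and CACGTG in 11.8% and 11.4%. The letters were found in 14 of 15 genes with all C5aR-/- libraries above WT and in 15 of the other 19. Slc2a3 had no window in the table. A match of 5 letters is a description of the sequence and was not related to any measured binding.

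In the pentose phosphate pathway the groups overlapped in 4 of the 6 genes, while 8.84% of all genes were apart above WT and 12.5% below. G6pdx, its rate-limiting dehydrogenase, was 72.2, 70.3 and 62.9 in WT and 109, 67.4 and 52.8 in C5aR-/- TAMs. Pgd, the dehydrogenase that makes its other NADPH, was 122, 117 and 106 in WT and 166, 128 and 102 in C5aR-/- TAMs. Taldo1, transaldolase, was 295, 273 and 346 in WT and 696, 279.9 and 227 in C5aR-/- TAMs. In all 3 genes a single library, C5aR-/- TAM 1, was the highest and C5aR-/- TAM 3 the lowest, so that the groups overlapped.

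Tkt, transketolase, ran from 127 to 149 in WT and from 131 to 180.5 in C5aR-/- TAMs, and was also highest in C5aR-/- TAM 1. Without C5aR-/- TAM 1 the log2 differences of G6pdx, Pgd, Taldo1 and Tkt changed from 0.09, 0.17, 0.22 and 0.12 to -0.19, -0.0082, -0.27 and -0.026. Their direction thus rested on 1 library, the 1 in which erythroid genes had a summed TPM of 26558, and the part of red cell RNA in these values was not tested. Pgls, the lactonase, was 76.3, 76.2 and 79.4 in WT and 90.6, 86.98 and 109 in C5aR-/- TAMs, narrowly apart, by 0.29 on the log2 scale (SE 0.13).

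Rpia, ribose 5-phosphate isomerase, of the non-oxidative arm, was lower in all C5aR-/- libraries. It was 17.1, 14.6 and 20.4 in WT and 8.16, 11 and 8.68 in C5aR-/- TAMs (-0.83 ± 0.20 on the log2 scale, SE, limma, adjusted p = 0.162). C5aR-/- TAM 1 was the lowest, and the difference was -0.75 without it.

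Of the 5 glycogen genes, the groups were apart in Pgm2 alone, on the higher side, where 8.84% of all genes were. Pgm1 (Ensembl ENSMUSG00000025791, on chromosome 4), the phosphoglucomutase between glycogen and glycolysis, ran from 59.2 to 128 in WT and from 54.4 to 131 in C5aR-/- TAMs, with a spread within each group far larger than the gap between them. Pgm2, a related mutase, was 19.02, 17.7 and 20.02 in WT and 21.4, 24.9 and 23.8 in C5aR-/- TAMs, narrowly apart, by 0.29 on the log2 scale (SE 0.14). The symbols of these genes were exchanged in older annotations.

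Gys1, glycogen synthase, ran from 4.93 to 7.7 in WT and from 7.65 to 12.9 in C5aR-/- TAMs, and the lowest C5aR-/- value was just under the highest WT value. Gbe1, the branching enzyme, was 14.3, 10.04 and 7.87 in WT and 7.92, 7.95 and 5.3 in C5aR-/- TAMs. Pygl, the phosphorylase that releases glucose units, ran from 15.7 to 49.9 in WT and from 8.17 to 22.9 in C5aR-/- TAMs (-0.80 ± 0.50 on the log2 scale, SE). For Gbe1 and Pygl, WT TAM 1 was the highest library and C5aR-/- TAM 3 the lowest.

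Across the libraries, the payoff phase and the pentose phosphate pathway divided the C5aR-/- group in opposite ways. The median deviation of the 6 payoff genes from the WT mean (log2) was 0.44 in C5aR-/- TAM 1, 1.21 in TAM 2 and 1.28 in TAM 3. The median of the 6 pentose phosphate genes was 0.47, -0.0092 and -0.27 in the same order. Of the 16 genes with all C5aR-/- libraries above WT, C5aR-/- TAM 1 was the lowest of its group in 11. Over all 35 genes the medians were nearly equal, at 0.39, 0.38 and 0.33, against -0.05, -0.04 and -0.05 for all genes tested.

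**Figure D4:**
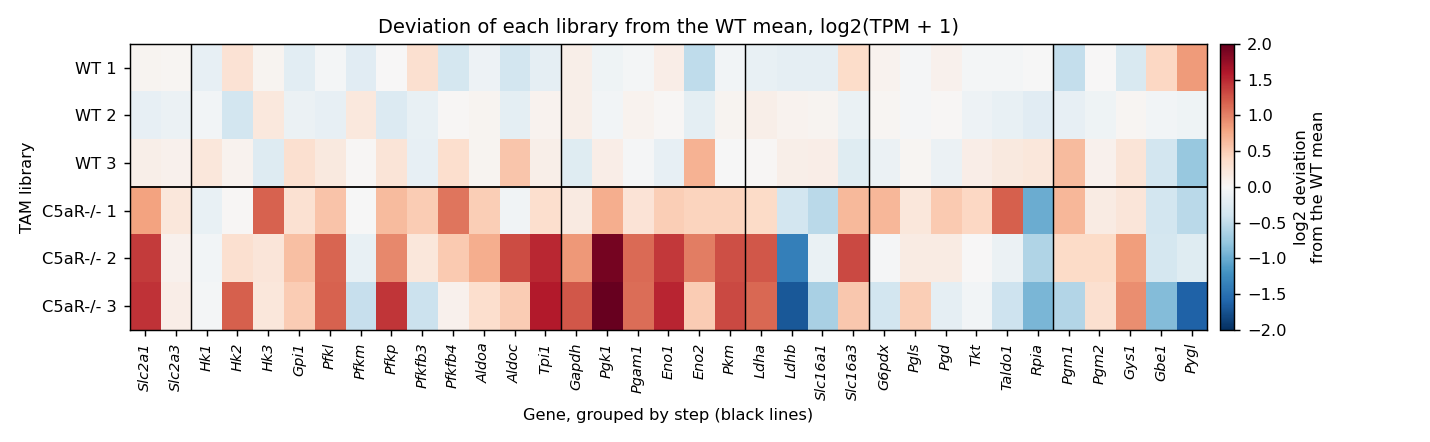
Deviation of each library from the WT mean on the log2(TPM + 1) scale, with libraries in rows, genes in columns grouped by step, and red for values above and blue for values below the WT mean. C5aR-/- TAM 2 and 3 are red from Tpi1 to Ldha and blue at Ldhb, and C5aR-/- TAM 1 is red at Hk3, Pfkfb4 and Taldo1.

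Genes next to the pathway were examined in 8 lists with 113 genes, of which 94 were tested. Their differences were above 0 in 45 and below 0 in 49, and the median was -0.02 on the log2 scale. At the unadjusted threshold with fold change 2, 4 were higher and 4 lower, where 2.13% and 2.84% of all genes were, and 0 passed the adjusted threshold. Genes at the gate to the mitochondria were among them. Pdk1, a kinase that switches off pyruvate dehydrogenase and a known HIF-1 target, was 8.8, 10.6 and 12.8 in WT and 18.1, 29.01 and 30.2 in C5aR-/- TAMs (log2 difference 1.17). Pdk4, another kinase of the complex, was 4.92, 4.59 and 1.72 in WT and 13.8, 12.4 and 18.8 in C5aR-/- TAMs (log2 difference 1.82). Pdp1, a phosphatase that switches the complex back on, was 25.3, 27.8 and 24.3 in WT and 11.2, 12.2 and 10.1 in C5aR-/- TAMs (-1.14 ± 0.15 on the log2 scale, SE, limma, adjusted p = 0.0666). In these 3 genes the groups were apart, and C5aR-/- TAM 1 stood with its group in Pdk4 and Pdp1. Pdp2, the other phosphatase, was also lower in all C5aR-/- libraries (-0.71 on the log2 scale). The other kinases Pdk2 and Pdk3 had overlapping groups, with log2 differences of -0.23 and 0.07. The subunit genes of the complex itself, Pdha1, Pdhb, Dlat and Dld, also overlapped, with log2 differences from -0.22 to 0.16. Of the pyruvate carrier genes, Mpc1 overlapped (log2 difference 0.11) and Mpc2 was lower in all C5aR-/- libraries (-0.41). Pcx, pyruvate carboxylase, was higher in all of them (0.43). Over the 14 genes of this list the median log2 difference was 0.03, with 7 above 0 and 7 below.

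Emb, which encodes embigin, a partner that carries monocarboxylate transporters to the cell surface, was 19.4, 19.1 and 14.2 in WT and 52.6, 51.3 and 74.7 in C5aR-/- TAMs (1.70 ± 0.21 on the log2 scale, SE, limma, adjusted p = 0.0666). Bsg, which encodes basigin, the partner of MCT1 and MCT4, was far more abundant and nearly level, with 361 to 426 in WT and 356 to 519 in C5aR-/- TAMs. Eno3, the muscle enolase, was 8.13, 13.8 and 11.4 in WT and 18.5, 22.2 and 43.1 in C5aR-/- TAMs (log2 difference 1.19). On the lower side, Slc2a6, a hexose transporter of the lysosome, was 21.9, 11.2 and 13.6 in WT and 6.83, 7.05 and 3.31 in C5aR-/- TAMs (log2 difference -1.30). Ugp2, which makes UDP-glucose for glycogen, was 146, 159 and 141 in WT and 98.3, 75.7 and 51.7 in C5aR-/- TAMs (log2 difference -1.02). In each of the 4 higher and 4 lower genes the groups did not overlap, which their choice at the threshold made likely. Of all 94 neighboring genes tested, the groups were apart in 12 higher and 13 lower, where 8.84% and 12.5% of all genes were.

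Among regulators, Mlxipl, which encodes the glucose-sensing factor ChREBP, was 49.3, 41.5 and 51.6 in WT and 24.2, 20.7 and 17.95 in C5aR-/- TAMs (-1.15 ± 0.16 on the log2 scale, SE, limma, adjusted p = 0.0668). Txnip, a ChREBP target that restrains glucose uptake, was 237, 389 and 423 in WT and 289.6, 279 and 248 in C5aR-/- TAMs, with overlapping groups. Hif1a was at 78.8 ± 7.07 (SD, n = 3) in WT and 76.8 ± 6.86 in C5aR-/- TAMs, a difference whose sign turned under median-of-ratios scaling. As background, HIF-1α is set mainly through the stability of its protein, which was not measured. Egln3, an oxygen sensor and HIF target, was 42.6, 38.9 and 53.3 in WT and 44.9, 86.2 and 56.4 in C5aR-/- TAMs, with only C5aR-/- TAM 2 well above the WT values. The gene of MYC, chosen here after its values were seen, was 125, 118 and 80.5 in WT and 245, 155 and 231 in C5aR-/- TAMs (0.96 ± 0.24 on the log2 scale, SE, limma, adjusted p = 0.177). Epas1, of the same list, was 20.96, 21.05 and 25.2 in WT and 23.6, 11.3 and 6.09 in C5aR-/- TAMs, with overlapping groups (log2 difference -0.85). Of the 23 regulators tested, 12 had a log2 difference above 0 and 11 below, and the median was 0.02.

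**Figure D5:**
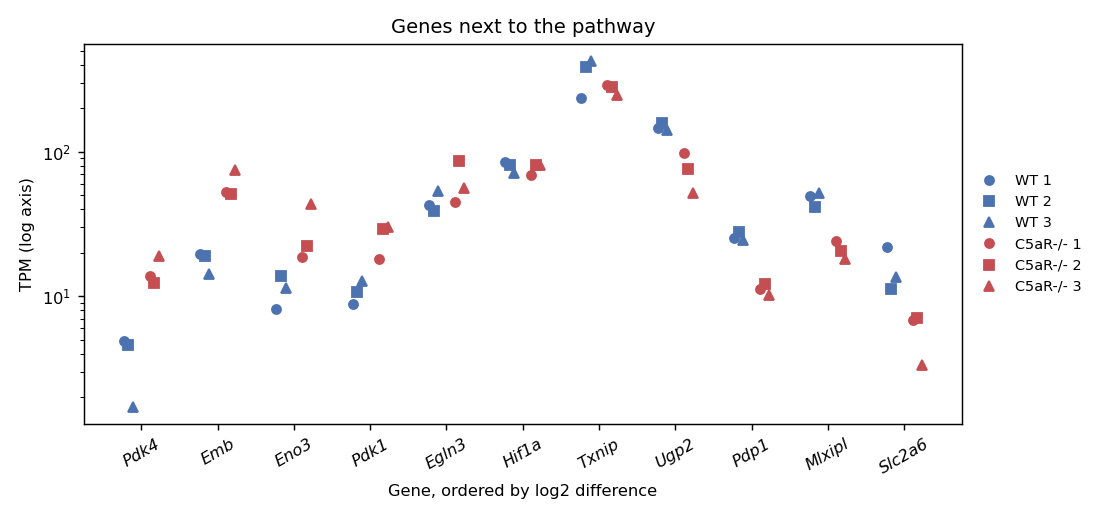
TPM on a log axis of 11 genes next to the pathway, ordered by log2 difference, in WT (blue) and C5aR-/- (red) libraries. Pdk4, Emb, Eno3 and Pdk1 are higher and Ugp2, Pdp1, Mlxipl and Slc2a6 lower in all C5aR-/- libraries, while Egln3, Hif1a and Txnip overlap.

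Markers of other cell types also differed between the libraries. The summed TPM of 10 neutrophil genes was 1076, 2526 and 660 in WT and 237, 433 and 32.5 in C5aR-/- TAMs, although the sort removed Ly6G+ cells. Of the 10, 9 passed the filter, and Ly6g itself was at 4.94 or lower. Mesothelial genes, 6 in all with Muc16 and Wt1 also in the epithelial list, were at 1060, 1180 and 1402 in WT and 1005, 936 and 721 in C5aR-/- TAMs. The neutrophil and mesothelial sums were lower in all C5aR-/- libraries, lowest in TAM 3. The macrophage, monocyte, dendritic cell, T and NK cell, B cell, epithelial and endothelial sums were also lowest in C5aR-/- TAM 3. Those of mast cell, fibroblast and erythroid genes were not. Of 6 mast cell genes, 5 were lower in all C5aR-/- libraries, where 12.5% of all genes tested were. Among them Cpa3, a mast cell protease, was at 18.97, 11.9 and 26.7 in WT and 1.59, 0.57 and 0 in C5aR-/- TAMs. Mcpt4, another, was 12.4, 12.02 and 22.4 in WT and 0.25, 0 and 0 in C5aR-/- TAMs. Kit, the stem cell factor receptor, was instead higher, at 28.9, 33.1 and 29.8 in WT and 54.7, 67.99 and 85.4 in C5aR-/- TAMs, so that the sum over the 6 overlapped between the groups. Msln, a mesothelial gene also made by ovarian tumors, was higher in all C5aR-/- libraries, with 145, 135 and 180 in WT and 268, 284 and 288 in C5aR-/- TAMs. Within the C5aR-/- group, the sum of the 14 macrophage genes was 9911, 5701 and 2872 in TAM 1, 2 and 3, while that of the 6 payoff genes was 4410, 7622 and 9011. In the WT group the macrophage sum was 9917, 4134 and 2914, and the payoff sum 3818, 3830 and 3218. Krt8, an epithelial keratin, was 465, 455 and 460.2 in WT and 758, 624 and 743 in C5aR-/- TAMs, whereas the whole epithelial list overlapped. The summed TPM of 7 fibroblast genes was 411, 486.5 and 644 in WT and 567, 444 and 476 in C5aR-/- TAMs, so that the groups overlapped. Among them Col1a1 was 3.52, 7.13 and 10.8 in WT and 1.21, 43.3 and 236 in C5aR-/- TAMs. Dcn ran the other way within the C5aR-/- group, with 373, 411 and 531 in WT and 548, 372 and 180 in C5aR-/- TAMs. The part of these cell types in the glycolytic values was not tested.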

How the data were processed

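The 6 TAM libraries, 3 WT and 3 C5aR-/-, were grouped by their titles. Read trimming by the authors used fastp, alignment HISAT2, and assembly and quantification StringTie, with transcriptomes merged in gffcompare. The submitters' processing notes also name RSEM and DESeq2, and the build mm10 (GRCm38). Versions and annotation release are not given in the sources used here. The deposited values are TPM per gene, estimated by the authors, and sum to 1000000 in each library, so depth and counting error are unknown. The table also holds the authors' group means, which were not used.

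The 14776 genes that reached a TPM of 1 in 3 or more libraries were tested on log2(TPM + 1) with limma 3.58.1 in R 4.3.3, eBayes with trend and Benjamini-Hochberg adjustment over all of them. The study's own thresholds, a fold change of 2 with an adjusted or an unadjusted p under 0.05, were both applied. With 3 libraries against 3, a two-sided exact permutation test cannot go below p = 0.1, the value for C5ar1. Tables were built in pandas 2.3.3 under Python 3.11.15.

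The genes and lists were chosen with earlier results of these data known. Members were given in full where the groups did not overlap, the log2 difference was at least 1 in size, or no other gene serves the step. Of the neighboring genes, up to 4 per direction with the largest difference at the unadjusted threshold were named, and Hif1a, Txnip, Pdk1 and Egln3 in any case. Other genes named from those lists were chosen after their values were seen. Transcript words and positions are from GENCODE M21 and promoters from RefSeq. Each library was left out in turn, and the fit was repeated with the replicate number as a block, eBayes without trend, median-of-ratios scaling, quantile normalization, a filter at a TPM of 5 or none, and a pseudocount of 0.1.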

Additional observations from a re-analysis of the deposited data

How the results depend on the processing

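Of the 35 genes, 28 kept their direction in all 13 alternative fits. Without C5aR-/- TAM 1 the direction turned for Pfkfb3 (-0.11), G6pdx (-0.19), Pgd (-0.0082), Tkt (-0.026), Taldo1 (-0.27) and Pgm1 (-0.10), without WT TAM 1 for Pgm1 (-0.081), and without WT TAM 3 for Hk1 (0.029). Hif1a turned with median-of-ratios scaling (0.0093), without WT TAM 1 (0.017) and without C5aR-/- TAM 1 (0.039). With 1 library left out, the highest values of these genes were 0.36 for Pfkfb3, 0.32 for G6pdx, 0.34 for Pgd, 0.21 for Tkt, 0.54 for Taldo1 and 0.52 for Pgm1, and the lowest were -0.16 for Hk1 and -0.11 for Hif1a. The cause was not tested.

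With 1 library left out, from 0 to 9 of the 35 genes passed the adjusted threshold (9 without C5aR-/- TAM 1, 0 in the 5 other fits). At the unadjusted threshold from 2 to 10 were higher and from 0 to 1 lower, with the lowest counts without C5aR-/- TAM 3. The number with groups apart was from 18 to 25, and the median log2 difference from 0.35 to 0.55. It was 0.38 without WT TAM 1 and 0.35 without C5aR-/- TAM 1. Over all genes, from 0 to 356 passed the adjusted threshold with 1 library left out and 2 did under eBayes without trend. At the unadjusted threshold, from 244 to 619 were higher and from 323 to 647 lower, against 314 and 419 with all 6 libraries. A filter at a TPM of 5 left fewer genes to test, of which 201 were higher and 274 lower. C5ar1 had a log2 difference from -5.63 to -4.45 with 1 library left out, and passed the adjusted threshold without C5aR-/- TAM 1 (-5.16, adjusted p = 0.0221, limma).

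Whether libraries of the same replicate number were matched is not given in the sources used here. The deviations of same-numbered libraries from their group means correlated at 0.19, -0.011 and 0.27. These values cannot decide it, since libraries of unlike number were not compared in this way. In the fit with the replicate block, 0 genes reached the adjusted threshold, 344 were higher and 467 lower at the unadjusted one, and among the 35 genes 6 were higher and 1 lower. C5ar1 was at -5.04 in that fit. Depth is unknown, so the precision of genes of low TPM, such as Aldoc and Pfkfb4, rests on the spread between libraries.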
